A study of Mus musculus with 6 samples.

Results

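Calcineurin and NFAT signalling was examined in mouse hearts through 9 genes: the calcineurin subunits Ppp3ca, Ppp3cb and Ppp3r1, the NFAT transcription factors Nfatc1, Nfatc2, Nfatc3 and Nfatc4, and the calcineurin regulators Rcan1 and Rcan2. They were found by their gene name on the arrays, which gave 12 of the 55681 probes and 9 of the 28909 gene names. Male C57BL/6 mice were tail-suspended for 28 days, which unloads the hindlimbs and simulates microgravity, or served as sham controls that were not suspended and shared space and feeding. The labels name no drug or transgene for either group. They give 10 weeks as the age when suspension began and, in another field, an age of 11 weeks, and the fields and the 28 days do not add up, so the age at sampling is not settled. RNA of cardiac muscle from 3 sham and 3 tail-suspended mice was read on 6 one-colour Agilent arrays, 1 mouse per array.

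Calcineurin is a phosphatase that calcium and calmodulin switch on. It pairs a catalytic subunit (Ppp3ca or Ppp3cb in the heart) with a calcium-binding regulatory subunit (Ppp3r1), and it removes phosphate from NFAT proteins, which then enter the nucleus and act on genes. In the heart the pathway is best known for driving growth of cardiomyocytes under load. Rcan1 is itself transcribed in response to NFAT, so its transcript is often read as a gauge of the pathway. Calcineurin and NFAT act largely through phosphorylation and location, which a transcript array does not read.

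Rcan1 has 2 start sites in the RefSeq promoter table (GRCm38.p6). The 250 bases before each are shown because the inner start is the one known, as background, to be induced through calcineurin and NFAT. Capitals mark the core of the NFAT motif, GGAAA, or TTTCC where it lies on the other strand.
Rcan1 outer start, chr16:92466170-92466419, minus strand: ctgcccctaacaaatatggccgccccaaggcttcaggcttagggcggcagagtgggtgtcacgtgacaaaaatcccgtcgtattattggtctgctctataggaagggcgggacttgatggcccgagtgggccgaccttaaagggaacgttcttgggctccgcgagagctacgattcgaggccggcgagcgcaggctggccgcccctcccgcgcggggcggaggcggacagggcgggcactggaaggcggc
Rcan1 inner start, chr16:92400079-92400328, minus strand: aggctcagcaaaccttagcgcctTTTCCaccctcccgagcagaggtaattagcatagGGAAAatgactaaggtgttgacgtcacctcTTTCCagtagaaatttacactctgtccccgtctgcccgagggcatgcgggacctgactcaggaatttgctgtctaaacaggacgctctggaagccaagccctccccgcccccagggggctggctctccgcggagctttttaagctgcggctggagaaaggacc
The inner window held 3 matches and the outer window none. Of 32851 windows of this length, 55.6% held at least 1 match and 6.39% held 3 or more. A match is a description of letters, not a binding site. The Rcan1 probe lists both RefSeq mRNAs of the gene, so its level does not tell the starts apart.

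NFAT proteins share a conserved DNA-binding region. The probes of Nfatc2 and Nfatc3 that lie nearer the start of their transcripts read neighbouring stretches of its coding sequence, and they are shown because each gene was also read by a second probe farther along, and the differences at the probes of Nfatc3 had opposite signs. Their positions are the array's own, on mm9.
Nfatc2 probe, chr2:168361757-168361816, minus strand: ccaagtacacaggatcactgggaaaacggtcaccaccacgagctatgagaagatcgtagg
Nfatc3 probe, chr8:108615965-108616024, plus strand: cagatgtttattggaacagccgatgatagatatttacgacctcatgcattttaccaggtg

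All 9 genes were measurable in the heart, and 1 of them, Nfatc1, was higher after tail-suspension. Each of the 12 probes was well above background on all 6 arrays and entered the test. Levels are the log2 of the processed intensity relative to the 75th percentile of the same array, so that 0 is the brightness at that percentile, and the level of a probe is not read against that of another gene. Where a gene had 2 probes, only the change of the difference between them from sham to tail-suspension was read. At an adjusted p of 0.05 (limma, Benjamini-Hochberg over 28032 probes), 1 of the 9 genes was higher and 0 were lower. Over all 17140 genes tested, 10.6% were higher and 10.5% lower, 21.2% in either direction, so the share among the 9 genes was near or below that of the whole array. At an unadjusted p of 0.05, limma called 1 of the 9 genes, beside 10673 of 28032 probes on the whole array, and the methods' unpaired test called 2, beside 9498 of 28003 probes. The median log2 fold change was -0.081 over the 9 genes and -0.014 over all genes. The values ran from -0.28 for Rcan1 to 0.35 for Nfatc1, and 6 of the 9 lay within 0.1 of 0. The arrays of the groups did not overlap for Nfatc1, which was higher, and for Ppp3ca and Nfatc3, which were lower, against 22.2% of all genes higher, 24.2% lower and 46.4% in either direction. With 3 arrays a group, the smallest two-sided p of an exact permutation test is 0.1. In whole tissue, fewer cells of a type and less RNA per cell cannot be told apart.

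**Figure D1:**
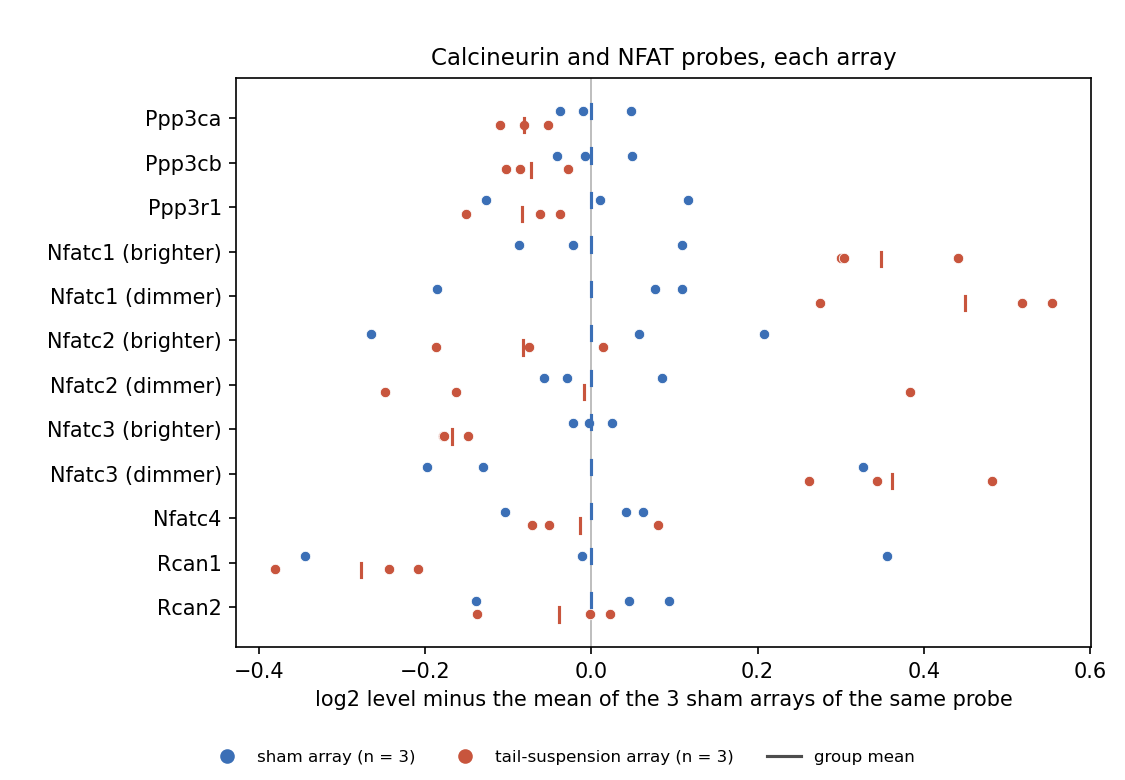
Log2 level on each array minus the mean of the 3 sham arrays of the same probe (x axis) for the 12 probes (y axis); points are arrays and short vertical lines are group means. The tail-suspension arrays lie to the right of every sham array for both Nfatc1 probes, and the sham arrays of Rcan1 are spread widely.

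The subunits of calcineurin differed little between the groups. Ppp3ca, the alpha catalytic subunit, read 3.63, 3.58 and 3.55 in sham hearts and 3.53, 3.51 and 3.48 in tail-suspended hearts. The tail-suspension arrays were all lower, but the nearest arrays of the groups lay close together. The log2 fold change was -0.081 (95% confidence interval -0.27 to 0.11, limma adjusted p = 0.484). Ppp3cb, the beta catalytic subunit, which has been linked to hypertrophic growth of the heart, read 2.62, 2.68 and 2.59 in sham and 2.60, 2.53 and 2.55 in tail-suspension. Its groups overlapped, and its log2 fold change was -0.073 (95% confidence interval -0.26 to 0.12, limma adjusted p = 0.539). Ppp3r1, the regulatory subunit, read 2.76, 2.65 and 2.51 in sham and 2.60, 2.49 and 2.58 in tail-suspension, again with overlap. Its log2 fold change was -0.084 (95% confidence interval -0.31 to 0.15, limma adjusted p = 0.559). All 3 intervals include 0 and lie well short of a 2-fold change. A further catalytic gene, Ppp3cc, known chiefly from testis and brain, read 2.11, 2.18 and 2.08 in sham and 2.26, 2.24 and 2.30 in tail-suspension (log2 fold change 0.15, limma adjusted p = 0.22, SE 0.080). Ppp3r2, a regulatory subunit gene known from testis, was not well above background on any array.

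Among the NFAT factors, Nfatc1 rose by both of its probes. Nfatc1 is known for its part in the endocardium and heart valves and in lymphocytes. Its brighter probe (chromosome 18, 80803664 to 80803723 on mm9, minus strand) read 0.93, 0.86 and 1.06 in sham and 1.25, 1.26 and 1.39 in tail-suspension. Its dimmer probe (chromosome 18, 80845439 to 80845498 on mm9, minus strand) read -1.15, -1.12 and -1.41 in sham and -0.71, -0.95 and -0.67 in tail-suspension. At both probes every tail-suspended heart was above every sham heart. The log2 fold change was 0.35 (95% confidence interval 0.12 to 0.57, limma adjusted p = 0.0452), or 1.27-fold, at the brighter probe. At the dimmer probe it was 0.45 (95% confidence interval 0.15 to 0.75, limma adjusted p = 0.0477), or 1.37-fold. The brighter probe lists 4 of the 6 RefSeq mRNAs of the gene and the dimmer probe the other 2, so the rise was read at separate sets of transcripts. The dimmer minus the brighter probe averaged -2.18 ± 0.26 (SD, n = 3) across sham hearts and -2.08 ± 0.12 (SD, n = 3) across tail-suspended hearts, a difference of 0.10 (exact permutation test, two-sided p = 0.6).

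The call of Nfatc1 was close to the threshold. Its brighter probe had a log2 fold change between 0.30 and 0.40 with each array left out. It passed in none of those 6 fits (limma adjusted p between 0.0501 and 0.15). The dimmer probe passed in 1, without tail-suspension replicate 2 (limma adjusted p = 0.0359). With all arrays, the dimmer probe did not pass under normexp (0.28, limma adjusted p = 0.0772) or quantile normalization (0.42, limma adjusted p = 0.0662). Nor did it pass with the authors' log2 values (0.38, limma adjusted p = 0.0626). The slide held the 3 sham arrays and tail-suspension replicate 1 in its first row, and the remaining tail-suspension arrays in its second. With that row as a block, which compares tail-suspension replicate 1 with the sham arrays beside it, the log2 fold change was 0.30 at the brighter probe (limma adjusted p = 0.295) and 0.52 at the dimmer (limma adjusted p = 0.203). No tested marker of endothelial cells, T cells or B cells passed the threshold as higher. Over all genes tested, 10.6% were higher and 10.5% lower. The part of these cells in the change of Nfatc1 was not tested. Of 6 endothelial markers, all well above background on all arrays, 3 fell and none rose, and their summed level, in multiples of the 75th percentile of each array, lay between 149 and 160 in sham and between 116 and 129 in tail-suspension. Of 5 T cell markers, 3 were well above background on all arrays and Cd3g on none, and the summed level lay between 0.843 and 1.01 in sham and between 0.730 and 0.973 in tail-suspension. Of 3 B cell markers tested, 2 fell, and the summed level of all 4 lay between 0.485 and 0.860 in sham and between 0.334 and 0.537 in tail-suspension.

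**Figure D2:**
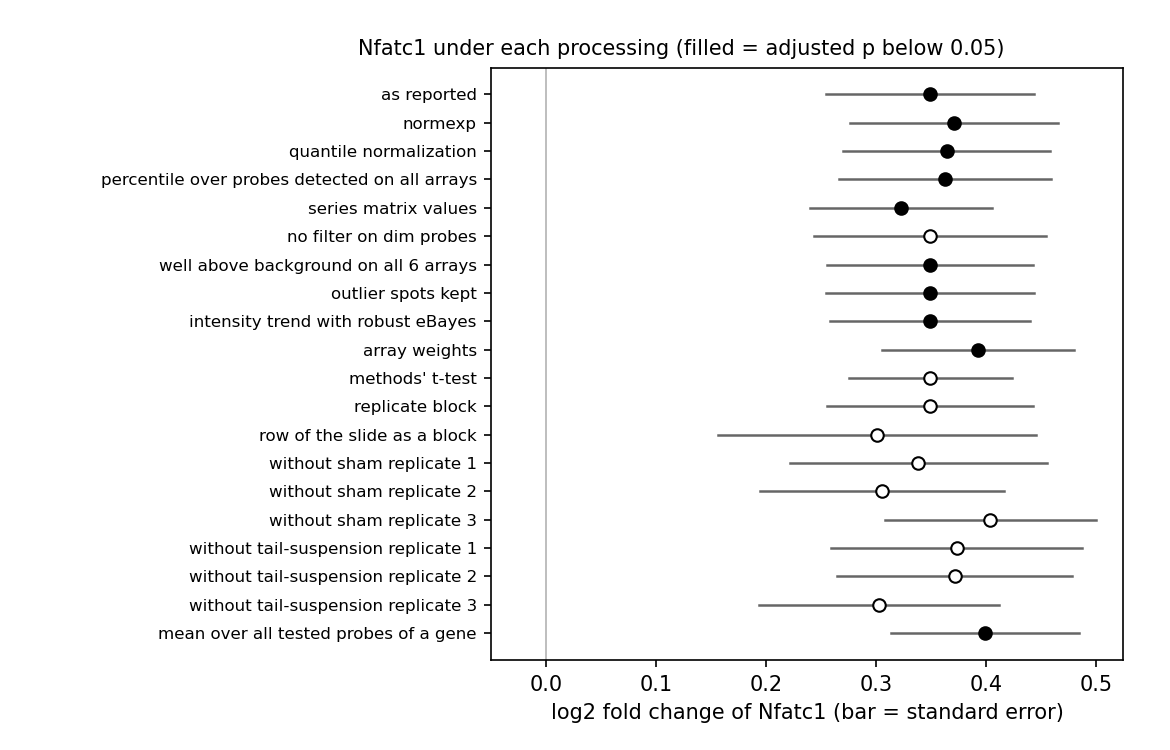
Log2 fold change of the brighter Nfatc1 probe (x axis, bars are standard errors; probes averaged in the last setting) under each way of processing the arrays (y axis); filled points had an adjusted p below 0.05. The change lies between 0.30 and 0.40 throughout, and the open points are those without the filter on dim probes, by the methods' unpaired test, with the replicate number or the slide row as a block, and without 1 array.

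The differences at the probes of Nfatc3 had opposite signs, and neither passed the threshold by limma over all 6 arrays. Nfatc3 is an NFAT factor that has been tied to hypertrophic growth of cardiomyocytes in mice. Its brighter probe (chromosome 8, 108654316 to 108654375 on mm9, plus strand) read -0.40, -0.37 and -0.41 in sham and -0.57, -0.54 and -0.57 in tail-suspension. The probe shown above read -2.92, -2.85 and -2.39 in sham and -2.46, -2.38 and -2.24 in tail-suspension. At the brighter probe the arrays of a group lay very close to each other and the groups did not overlap, whereas at the other probe sham replicate 3 lay among the tail-suspension arrays. The log2 fold change was -0.17 (95% confidence interval -0.35 to 0.014, limma adjusted p = 0.157) at the brighter probe and 0.36 (95% confidence interval -0.011 to 0.74, limma adjusted p = 0.14) at the other. The value at the dimmer probe was not stable: it was 0.054 under normexp (limma adjusted p = 0.786), and without sham replicate 3 it was 0.53 and passed (limma adjusted p = 0.0361). The mean of both probes gave 0.10. By the methods' unpaired test, which uses the spread of each probe alone, the brighter probe passed after adjustment over all probes (adjusted p = 0.0281). The dimmer minus the brighter probe went from -2.33 ± 0.30 (SD, n = 3) to -1.80 ± 0.11 (SD, n = 3), a change of 0.53 (exact permutation test, p = 0.1, two-sided, the least this design allows). Both probes list the same RefSeq mRNA.

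**Figure D3:**
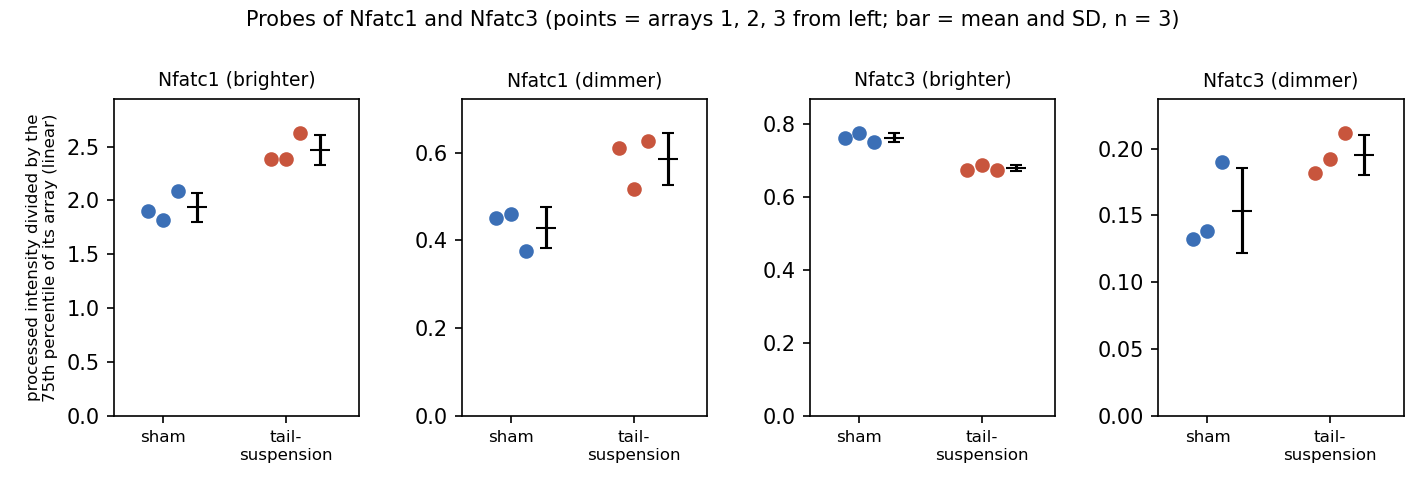
Processed intensity divided by the 75th percentile of its array (y axis, linear, from 0) for the probes of Nfatc1 and Nfatc3 in sham and tail-suspension; points are arrays and bars are the mean and SD of 3 arrays. Both Nfatc1 probes are higher in tail-suspension, and the means of the Nfatc3 probes differ in opposite directions.

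Nfatc2 and Nfatc4 overlapped between the groups. Nfatc2, best known from T cells, read 2.39, 2.07 and 2.54 in sham and 2.26, 2.35 and 2.15 in tail-suspension at its brighter probe, on chromosome 2 from 168301974 to 168302033 (log2 fold change -0.083, 95% confidence interval -0.42 to 0.25, limma adjusted p = 0.695). The Nfatc2 probe shown above read -1.69, -1.57 and -1.71 in sham and -1.90, -1.27 and -1.82 in tail-suspension, where replicate 2 stood above the other arrays. Its log2 fold change was -0.0089 (95% confidence interval -0.42 to 0.41, limma adjusted p = 0.975). Nfatc4 read 0.25, 0.10 and 0.27 in sham and 0.13, 0.15 and 0.28 in tail-suspension (log2 fold change -0.014, 95% confidence interval -0.24 to 0.21, limma adjusted p = 0.925). That sign turned under normexp background correction, with array weights and with single arrays left out. Nfat5, a related factor that responds to salt and does not need calcineurin, had a log2 fold change of 0.075 (limma adjusted p = 0.717).

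The regulators of calcineurin did not pass the threshold. Rcan1, whose protein binds calcineurin and can hold it back, read 2.90, 3.27 and 2.57 in sham and 2.70, 2.53 and 2.67 in tail-suspension. The sham hearts differed among themselves by 1.62-fold, against 1.13-fold among the tail-suspended hearts, which lay near the lowest sham heart. The log2 fold change was -0.28 (95% confidence interval -0.70 to 0.15, limma adjusted p = 0.296), and this interval was the widest of the 12 probes. Without sham replicate 2, the highest, the log2 fold change was -0.10, and without sham replicate 3, the lowest of the sham hearts, it was -0.45. Rcan2, a related regulator known to respond to thyroid hormone, read 6.44, 6.39 and 6.21 in sham and 6.37, 6.21 and 6.35 in tail-suspension. Its groups overlapped, with a log2 fold change of -0.039 (95% confidence interval -0.28 to 0.20, limma adjusted p = 0.805) and a sign that turned under normexp, with the row as a block and with single arrays left out. Rcan3, the remaining gene of the family, read 0.12, 0.13 and -0.23 in sham and -0.27, -0.43 and -0.35 in tail-suspension, without overlap (log2 fold change -0.36, limma adjusted p = 0.083).

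**Figure D4:**
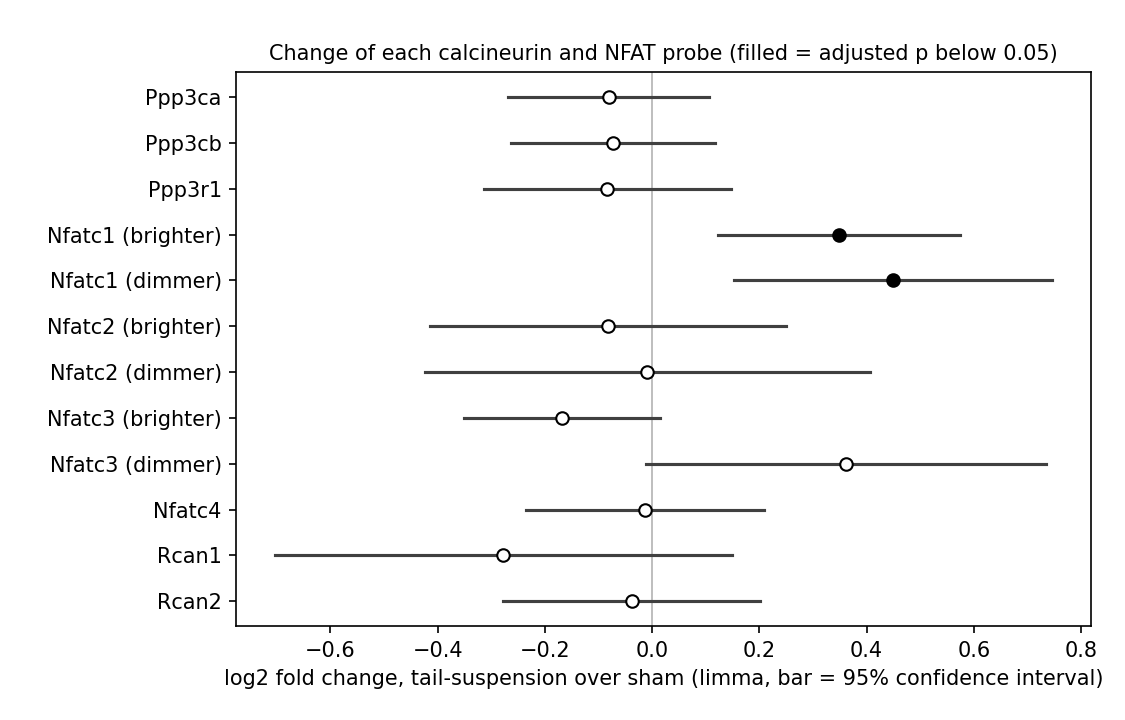
Log2 fold change of tail-suspension over sham (x axis) for the 12 probes (y axis), with 95% confidence intervals from limma; filled points had an adjusted p below 0.05. Both Nfatc1 intervals lie above 0, and the intervals of the other 10 probes reach across 0.

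The wider pathway was read from 44 other genes, which carry calcium to calcineurin, anchor or hold it, phosphorylate NFAT or act beside it. Of these, 42 were tested, and Ppp3r2 and the channel gene Trpc6 were not well above background on any array. At the adjusted threshold 1 was higher and 9 were lower, and 32 did not pass, against 10.6% higher and 10.5% lower over all genes. The median log2 fold change was -0.15, against -0.014 over all genes. The groups did not overlap for 5 genes that were higher and 17 that were lower, against 22.2% and 24.2% of all genes. With each array left out in turn, between 2 and 9 were lower and between 0 and 1 higher. With the slide row as a block, Akap5 alone of the 10 passed (limma adjusted p = 0.0212), and the other 9 kept their direction. Akap5 was also the 1 gene of the 42 read by a probe that met the filter through the sham arrays alone.

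Of 7 calcium channel and sensor genes tested, 2 fell, beside 10.5% of all genes lower. Itpr1, which releases calcium from internal stores, read 2.62, 2.75 and 2.74 in sham and 2.35, 2.36 and 2.25 in tail-suspension (log2 fold change -0.38, limma adjusted p = 0.0288, SE 0.087). Stim1 and Orai1, the sensor and the pore of store-operated calcium entry, had 0.080 and 0.11 at their brighter probes and did not pass there, while the dimmer Orai1 probe had -0.47 and did (limma adjusted p = 0.0228).

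Among 12 genes whose proteins anchor or hold calcineurin, 3 fell and none rose, beside 10.5% lower and 10.6% higher over all genes. Akap5, a scaffold that brings calcineurin to the membrane beside channels, read -0.25, -0.43 and 0.19 in sham and -3.91, -3.69 and -4.50 in tail-suspension, where 2 of 3 arrays were well above background, so that it entered the test through the sham group, where it was high. Its log2 fold change of -3.87 (limma adjusted p = 0.00145, SE 0.25) was the lowest of the 42 genes. Under normexp background correction it was -2.03 (limma adjusted p = 2.06e-05), so the size of the fall depended on the correction for background. Akap1, which anchors calcineurin at mitochondria, read 3.11, 3.03 and 2.92 in sham and 2.64, 2.54 and 2.62 in tail-suspension (log2 fold change -0.42, limma adjusted p = 0.0246, SE 0.089). Fhl2, a cardiac protein that binds calcineurin, read 8.82, 8.80 and 8.76 in sham and 8.41, 7.91 and 8.33 in tail-suspension, where replicate 2 was lowest (log2 fold change -0.58, limma adjusted p = 0.0357, SE 0.14). Myoz2, which ties calcineurin to the Z-disc of cardiomyocytes, had a log2 fold change of -0.068 (limma adjusted p = 0.621).

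Of 11 kinases tested that put phosphate back on NFAT, 2 fell and 1 rose, beside 21.2% of all genes called in either direction. Mapk14, a stress-activated kinase, read 4.24, 4.38 and 4.18 in sham and 3.68, 3.77 and 3.57 in tail-suspension (log2 fold change -0.60, limma adjusted p = 0.0121, SE 0.10). Mapk8, a Jun kinase, read -2.31, -1.87 and -2.08 in sham and -2.94, -2.79 and -2.98 in tail-suspension (log2 fold change -0.82, limma adjusted p = 0.0111, SE 0.13). Under normexp it was -0.51 (limma adjusted p = 0.0102). A second Mapk8 probe also fell, with -0.58 (limma adjusted p = 0.0203). Csnk1e, a casein kinase that also belongs to the circadian clock, rose, reading 1.84, 1.69 and 1.85 in sham and 2.45, 2.23 and 2.28 in tail-suspension (log2 fold change 0.52, limma adjusted p = 0.0175, SE 0.10). Its second tested probe had 0.54 (limma adjusted p = 0.0321). Gsk3b, well known for returning NFAT to the cytoplasm, had -0.22 at its brightest probe and did not pass there (limma adjusted p = 0.14), while a dimmer probe had -0.48 and did (limma adjusted p = 0.0156).

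Of 4 nuclear partners of NFAT, 1 fell, beside 10.5% of all genes lower. Gata4, a transcription factor that binds with NFAT at cardiac genes, read 3.83, 3.91 and 3.69 in sham and 3.51, 3.28 and 3.09 in tail-suspension (log2 fold change -0.52, limma adjusted p = 0.0363, SE 0.13). Mef2c, another cardiac factor, had -0.39 and did not pass (limma adjusted p = 0.065). Neither ligase of the pathway passed. Fbxo32, or atrogin-1, which marks calcineurin for degradation, read 1.40, 1.36 and 1.59 in sham and 1.92, 2.57 and 1.80 in tail-suspension, without overlap (log2 fold change 0.64, limma adjusted p = 0.0706). Trim63, a muscle ligase, had -0.071 (95% confidence interval -0.52 to 0.38) at its brighter probe. Its dimmer probe had -0.35 (95% confidence interval -1.25 to 0.54). At both Trim63 probes tail-suspension replicate 2 lay above every other array.

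**Figure D5:**
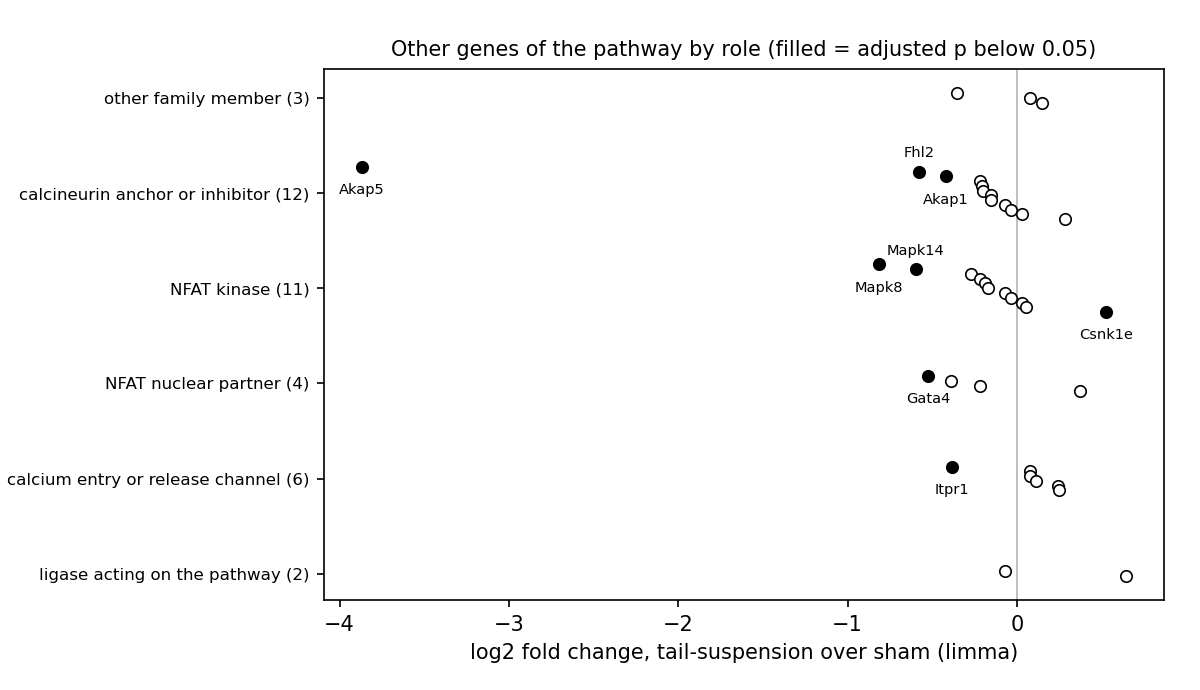
Log2 fold change of tail-suspension over sham (x axis) for 38 of the 42 tested genes of the wider pathway, grouped by role (y axis, number of genes in parentheses); filled points had an adjusted p below 0.05 and are named. Of the 8 filled points, 7 lie below 0, with Akap5 far from the rest, and Csnk1e lies above.

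Of 4 genes known to rise with hypertrophic signalling in the heart, 1 passed, beside 21.2% of all genes in either direction. Myh7, the slow myosin heavy chain, read 6.85, 8.61 and 8.08 in sham and 9.96, 10.04 and 10.02 in tail-suspension, so the sham hearts were spread and the tail-suspended hearts were close together above them. Its log2 fold change was 2.17 (limma adjusted p = 0.0178), and with the row as a block 2.12 (limma adjusted p = 0.15). The natriuretic peptide genes Nppa and Nppb had log2 fold changes of 1.45 (95% confidence interval 0.23 to 2.67, limma adjusted p = 0.0886) and 0.74 (95% confidence interval -0.46 to 1.94, limma adjusted p = 0.32). Nppa passed under normexp (1.51, limma adjusted p = 0.0304), with array weights (1.69, limma adjusted p = 0.0264) and without tail-suspension replicate 2 (2.03, limma adjusted p = 0.0133). Acta1, skeletal actin, had -0.90 (95% confidence interval -2.13 to 0.33, limma adjusted p = 0.245). With each array left out, Nppb lay between 0.29 (without tail-suspension replicate 1) and 1.19 (without tail-suspension replicate 2), and Acta1 between -1.33 (without sham replicate 1) and -0.35 (without sham replicate 2), none of them past the threshold.

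The tissue matched its label by its markers. All 6 cardiomyocyte markers were well above background on every array and none passed the threshold at its brightest probe, with a summed level between 2616 and 2881 in sham and between 2502 and 2652 in tail-suspension. A dimmer probe of Myh6, the fast myosin heavy chain, fell by 1.47 on the log2 scale (limma adjusted p = 0.00957). Over all genes tested, 10.6% were higher and 10.5% lower. Red cell markers summed to between 445 and 719 in sham and between 109 and 357 in tail-suspension, and 1 of 4 tested passed the threshold as lower. The log2 fold changes of the 4 lay between -1.80 and -1.50 (limma adjusted p between 0.0476 and 0.0619). Of 5 neutrophil markers tested, 3 rose: S100a8 27.9-fold and S100a9 24.5-fold (limma adjusted p = 0.00705 and 0.00661), and Retnlg, which no sham array had well above background and which entered the test through the tail-suspension arrays alone. Their summed level lay between 143 and 171 in sham and between 207 and 236 in tail-suspension, and most of it came from Csf3r, which did not pass (0.30, limma adjusted p = 0.0926). Of 4 macrophage markers tested, 1 rose, Cd163, which likewise entered through the tail-suspension arrays alone, and the summed level lay between 21.7 and 28.4 in sham and between 22.8 and 34.2 in tail-suspension. Of 5 fibroblast markers none passed, and the summed level lay between 253 and 273 in sham and between 269 and 333 in tail-suspension. The markers differed in direction: the log2 fold change was 0.34 for Dcn, the brightest, and 0.19 for Pdgfra. It was -0.95 for Col1a1, -0.63 for Col1a2 and -0.034 for Tcf21. Of 4 adipocyte markers 1 was tested and did not pass, and the summed level lay between 0.0659 and 0.375 in sham and between 0.241 and 2.66 in tail-suspension. Except for the cardiomyocytes, and for the adipocytes on some sham arrays, most of each sum came from the brightest marker of its list. The part of these cells, and of the endothelial and lymphocyte markers above, in the changes of the pathway was not tested. All 6 arrays lay on 1 slide, with between 50.9% and 53.4% of probes well above background and no saturated spot, and their number limits the precision.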

How the data were processed

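The authors scanned 6 one-colour arrays and deposited Agilent Feature Extraction 10.7.1.1 output for each, with a background-corrected (processed) intensity per spot. A series-wide table of log2 values was deposited as well. Its columns correlated at 0.999 with log2 processed intensity and all had a median of 4.33, and its normalization is not given in the sources used here, so it served as an alternative. With R 4.3.3 and limma 3.58.1, processed intensities were put on the log2 scale after division by the 75th percentile of their array. Control and outlier spots were dropped and spots of a probe averaged. A probe was tested if all arrays of sham or of tail-suspension had it well above background (at least 50% of its spots). The model (lmFit, eBayes) had the 2 groups of 3 mice and no covariate, and p-values were Benjamini-Hochberg adjusted with a threshold of 0.05. Each gene is represented by its brightest tested probe, and all probes of the 9 genes are given. Of the other pathway genes, those past the threshold and the one with the largest change per role were named by rule, except some that are not reported here; Ppp3cc, Nfat5, Stim1, Orai1, Myoz2, Gsk3b, Mef2c and Trim63 were named after their values were seen. The members and lists were chosen with earlier results of these data known. Alternatives covered background correction, scaling, filters, outlier spots, the variance model, blocks, the methods' unpaired Student test and each array left out. The steps were tested on simulated data. RefSeq promoter windows were used for 7 of the 9 genes.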

Additional observations from a re-analysis of the deposited data

How the results depend on the processing

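Nfatc1 was the 1 gene of the 9 that rose, read at its brighter probe. The count of 1 held under normexp, quantile normalization, the authors' log2 values, the percentile over detected probes and the stricter filter. It also held with kept outlier spots, the intensity trend, array weights and the mean over probes. It was 0 without the filter on dim probes, by the methods' unpaired test, with the replicate number as a block, with the slide row as a block, with a 2-fold minimum and with each array left out (lowest 0, highest 0). The methods' unpaired test counted 1 gene lower (Nfatc3); the number lower was otherwise 0 (0 to 0 with each array left out). Replicates share only a number: correlations of the deviations of same-numbered arrays were -0.020, -0.018 and 0.050. With this block, 1713 probes were higher and 1403 lower over the whole array, and 3 pathway genes were lower. For all probes, the reported 3023 higher and 2683 lower became 1041 and 790 without the filter, 1533 and 1250 by the methods' unpaired test, 320 and 177 with the row, 757 and 460 with the 2-fold minimum, and 965 to 2932 and 726 to 2580 with each array left out; array weights gave 4352 lower. Pathway genes that were higher numbered 2 under normexp and the intensity trend, 3 with array weights, 0 without the filter, with the row and with the 2-fold minimum, and 0 to 1 with each array left out. Those that were lower numbered 3 without the filter, 1 with the row, 1 with the 2-fold minimum and 2 to 9 with each array left out. Signs turned for values near 0: Nfatc4 was 0.0049 under normexp and 0.023 with array weights (-0.066 to 0.017 with each array left out), Rcan2 0.018 under normexp and 0.023 with the row (-0.11 to 0.011), Nfatc2 -0.22 to 0.021, its dimmer probe 0.0046 under the percentile over detected probes (-0.21 to 0.11), and Nfatc3 0.097 as the mean of its probes. The cause of these shifts was not tested.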

Other observations

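The genes whose 6 values, taken relative to their own sham mean, lay closest to those of Rcan1 were Nmd3, Arfip1, NAP113704-1, Ttc30b and 4930528F23Rik, with root mean square differences between 0.063 and 0.10 on the log2 scale over the 6 arrays. Their log2 fold changes lay between -0.37 and -0.19, near the value of Rcan1, as the choice by likeness fixes. With 6 arrays and 17140 genes this is a description only.

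Of the 12 promoter windows read for 7 of the 9 genes, 5 held no match to GGAAA on either strand. Nfatc4, Ppp3cb and 1 of the Nfatc2 windows held 3 matches each, as did the inner start of Rcan1. The windows of Nfatc1 and Ppp3ca were not read. Nfatc1 was the only member past the threshold, so the matches cannot be set against the calls.

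The calcineurin catalytic subunits were among the steadiest genes on the array. The pooled SD within groups of Ppp3ca lay at percentile 1.71 and that of Ppp3cb at percentile 2.88 among all genes tested, against percentile 79.9 for Rcan1. The brighter Nfatc3 probe lay at percentile 0.222, which is the reading that passed the methods' unpaired test after adjustment.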
